A study of Rattus norvegicus with 20 samples.

Results

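Myh6 and Myh7, the genes of the 2 cardiac myosin heavy chains, were followed in the ventricles of rats given monocrotaline (MCT) or saline. They were taken as the rows ENSRNOG00000025757 (Myh6) and ENSRNOG00000016983 (Myh7), which are 2 of the 30452 genes counted, together with their ratio in each library. Messenger RNA of male rats was profiled separately in the 2 ventricles of the heart, the right (RV) and the left (LV). Its title names a rat model of pulmonary hypertension, in which MCT, a plant alkaloid that injures lung vessels, raises the pressure against which the RV pumps. The 4 groups of 5 libraries were RV and LV after 60 mg/kg MCT, and RV and LV after saline. Injection followed once a rat weighed 250 g and is placed at day 0 to 4, and the labels give a discomfort score of at least 7 as the endpoint without a separate endpoint for saline rats. The labels name neither strain nor age.

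Myosin heavy chain is the motor of the thick filament. Myh6 encodes the α chain, which splits ATP and shortens fast, and Myh7 encodes the β chain, which is slower and uses less ATP for the same force. Rodent ventricles make mostly the β chain before birth and mostly the α chain as adults, and a return towards the β chain under pressure load or low thyroid hormone is a classic part of the fetal gene programme.

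Both genes lie next to each other on rat chromosome 15, on the same strand, and each carries a microRNA of the miR-208 family on that strand within its span. RefSeq also lists Mir3546 over Myh6, which is not shown. Another member of the family, Myh7b, carries another. These microRNAs share most of their seed, the stretch through which a microRNA pairs with its targets. They are shown because they lie within these genes, and whether they change with the messenger RNA of the gene was not tested. The libraries read the poly(A) ends of transcripts, so the microRNAs themselves were not measured. In the RefSeq sequences (assembly GRCr8), bases 2 to 8, the seed, are in capitals.

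rno-miR-208a-3p (in Myh6, chr15:32395568-32395585, minus strand): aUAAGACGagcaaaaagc

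rno-miR-208b-3p (in Myh7, chr15:32421648-32421665, minus strand): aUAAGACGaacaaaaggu

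rno-miR-499-5p (in Myh7b, chr3:164570616-164570636, plus strand): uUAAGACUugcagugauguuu

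The seed UAAGACG is the same in the miR-208a and miR-208b arms, and miR-499 has UAAGACU. Counted from the 5′ end, miR-208a-3p and miR-208b-3p differed at 3 of 18 positions (G10A, A16G and C18U, with the miR-208a base first), all outside the seed. The miR-208 arms within Myh6 and Myh7 thus carry one seed.

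The libraries held between 3272420 and 9227104 counts. Between 140 and 23818 of these fell on Myh6 and between 3489 and 41995 on Myh7, so counting error was small: the counting standard error (SE) of the log2 Myh7/Myh6 ratio was 0.12 in the library with fewest Myh6 counts and at most 0.056 in the other 19. Within their groups, 2 MCT libraries stood apart in the other genes too. On the first principal component of log2 CPM (counts per 1000000 counts of a library) computed without both myosin genes, which held 31.9% of the variance, RV MCT replicate 4 was at -30.2 and LV MCT replicate 3 at -21.0, among the 10 saline libraries, which ran from -31.0 to -9.50. The other 8 MCT libraries lay above all of them, from 7.13 to 53.9. Results that rest on these 2 libraries are therefore given with and without them.

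Both genes are made in quantity by cardiomyocytes. After saline, Myh6 ranked between 21 and 49 among all genes by counts in a library, and Myh7 between 28 and 72. The libraries were read from transcript 3′ ends, so a count does not grow with transcript length, and Myh6 and Myh7 counts are set against each other here without a length correction. In a bulk sample, fewer cardiomyocytes and less of a transcript per cardiomyocyte cannot be told apart.

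Over the 20 libraries and within each MCT group, Myh6 was the more variable gene. Within the saline groups Myh7 varied more from lowest to highest library. It spread 2.30-fold against 1.33-fold for Myh6 in the RV, and 2.61-fold against 1.99-fold in the LV. In RV saline libraries it was at 3196, 4059, 3628, 4183 and 3135 CPM in replicates 1 to 5, a mean of 3640 ± 480.2 CPM (SD, n = 5). In RV MCT libraries it was at 31.0, 178, 976, 4773 and 352 CPM in the same order. RV MCT replicates 1, 2, 3 and 5 lay below all RV saline libraries, while replicate 4 lay above all of them. The lowest and highest RV MCT libraries differed by 154-fold in Myh6, against 1.33-fold within RV saline.

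The LV showed the same picture for Myh6. LV saline libraries were at 3687, 3809, 2392, 2765 and 1911 CPM in replicates 1 to 5, a mean of 2913 ± 821 CPM (SD, n = 5). LV MCT libraries were at 55.8, 281, 3373, 358 and 220 CPM. Of the 5 MCT libraries 4 lay below all LV saline libraries, and replicate 3 lay among them.

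Myh7 varied over a narrower range than Myh6 over the 20 libraries and within the MCT groups, but not within the saline groups. RV saline libraries were at 1067, 2032, 2451, 1569 and 1142 CPM in replicates 1 to 5, a mean of 1652 ± 590 CPM (SD, n = 5). RV MCT libraries were at 2617, 2667, 2970, 1222 and 4185 CPM, a mean of 2732 ± 1057 CPM. Of the 5 RV MCT libraries 4 were above all RV saline libraries, and replicate 4 was again the exception, lying within the saline range.

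In the LV, Myh7 overlapped more between the groups. LV saline libraries were at 1323, 3044, 3455, 2602 and 1733 CPM, a mean of 2432 ± 890 CPM (SD, n = 5), and LV MCT libraries at 3464, 4766, 2745, 2960 and 2254 CPM, a mean of 3238 ± 958 CPM. LV MCT replicates 1 and 2 were above all LV saline libraries and the other 3 lay within their range.

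**Figure D1:**
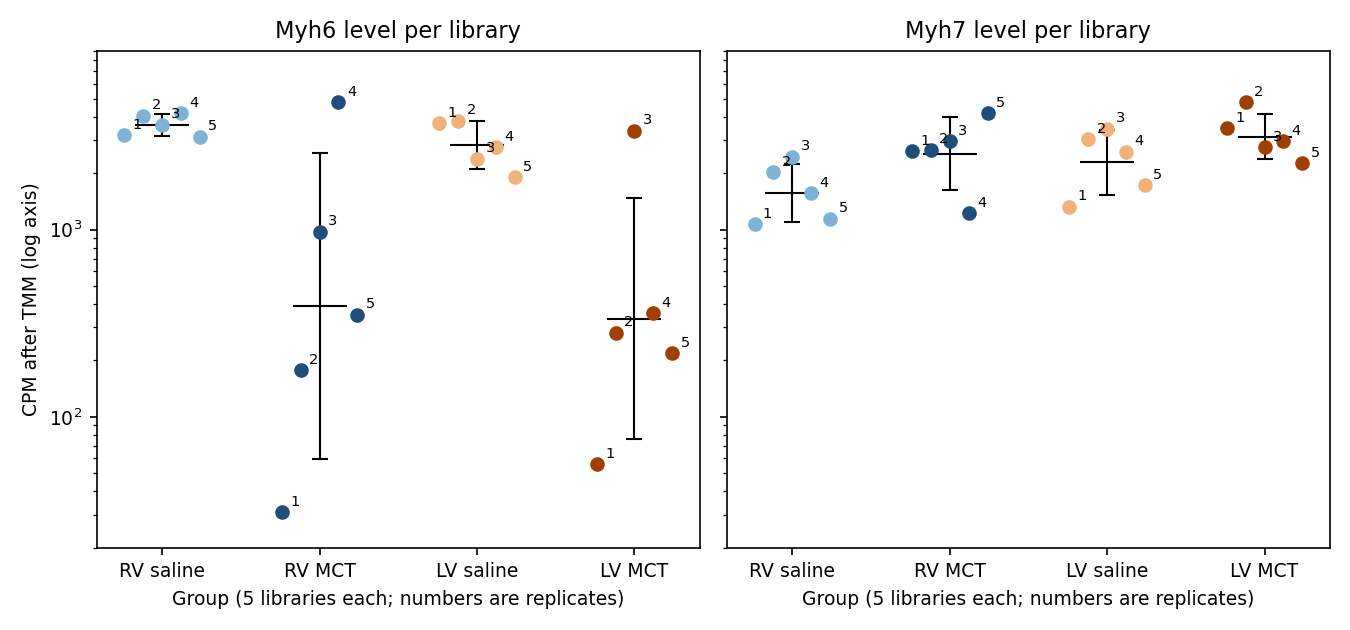
Level of Myh6 (left) and Myh7 (right) in each library, in CPM after TMM scaling on a log axis, for 4 groups of 5 libraries; numbers are replicates, the horizontal mark is the geometric mean and the whiskers are 1 SD of log2 CPM. RV MCT libraries span 31.0 to 4773 CPM for Myh6 but 1222 to 4185 CPM for Myh7.

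MCT was first compared with saline in the RV, the ventricle that pumps into the lung circulation. The log2 fold change of Myh6 was -1.53 (SE 0.95), a 2.89-fold lower level, and did not pass the threshold (edgeR quasi-likelihood test, adjusted p = 0.43, 95% interval -3.50 to 0.44). That of Myh7 was 0.73 (SE 0.31), a 1.65-fold higher level, with an unadjusted p of 0.029 and an edgeR adjusted p of 0.22. Neither member was thus called, in a comparison that called 0.274% of the 10929 genes tested. Neither had groups without overlap, as 0.961% of genes had towards higher and 1.42% towards lower values.

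The size of the Myh6 difference depended on how libraries were averaged. The edgeR fold change compares group means of counts, which RV MCT replicate 4 dominated. The mean of log2 CPM was 8.61 ± 2.71 (SD, n = 5) after MCT and 11.82 ± 0.19 after saline, which is a 9.24-fold difference. Without RV MCT replicate 4 the edgeR log2 fold change was -3.24 (SE 0.94), and Myh6 was called (edgeR adjusted p = 0.043), in a fit that called 6.34% of all genes tested. With limma voom and quality weights, which give libraries far from their group less weight, it was -3.16 (limma adjusted p = 0.038) with all libraries kept, where 2.52% of genes were called. For Myh7 these settings gave 0.91 (edgeR adjusted p = 0.059) and 0.93 (limma adjusted p = 0.10), which were not called. Leaving out a library that looked unaffected favours a Myh6 call, and so can giving it less weight.

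In the LV, which does not face the lung circulation, the log2 fold change of Myh6 was -1.77 (SE 0.96), a 3.40-fold lower level (edgeR adjusted p = 0.26, 95% interval -3.75 to 0.22). That of Myh7 was 0.41 (SE 0.31), a 1.33-fold higher level (edgeR adjusted p = 0.44). Neither was called, where 9.52% of all genes were, and neither had groups without overlap, as 3.21% of genes had towards higher and 3.82% towards lower values. The unadjusted p values were 0.079 and 0.19.

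Here too 1 library set the size for Myh6. The mean of log2 CPM was 8.39 ± 2.13 (SD, n = 5) after MCT and 11.46 ± 0.42 after saline, an 8.42-fold difference. Without LV MCT replicate 3 the edgeR log2 fold change was -3.67 (SE 0.93, edgeR adjusted p = 0.012), in a fit that called 15.2% of genes. Limma voom with all libraries gave -3.20 (limma adjusted p = 0.0012) and called 26.6% of genes. Myh7 stayed uncalled in both, and with limma voom its log2 fold change was 0.46 (limma adjusted p = 0.20). As in the RV, leaving out the library that looked unaffected favours a Myh6 call, and giving it less weight can do so.

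**Figure D2:**
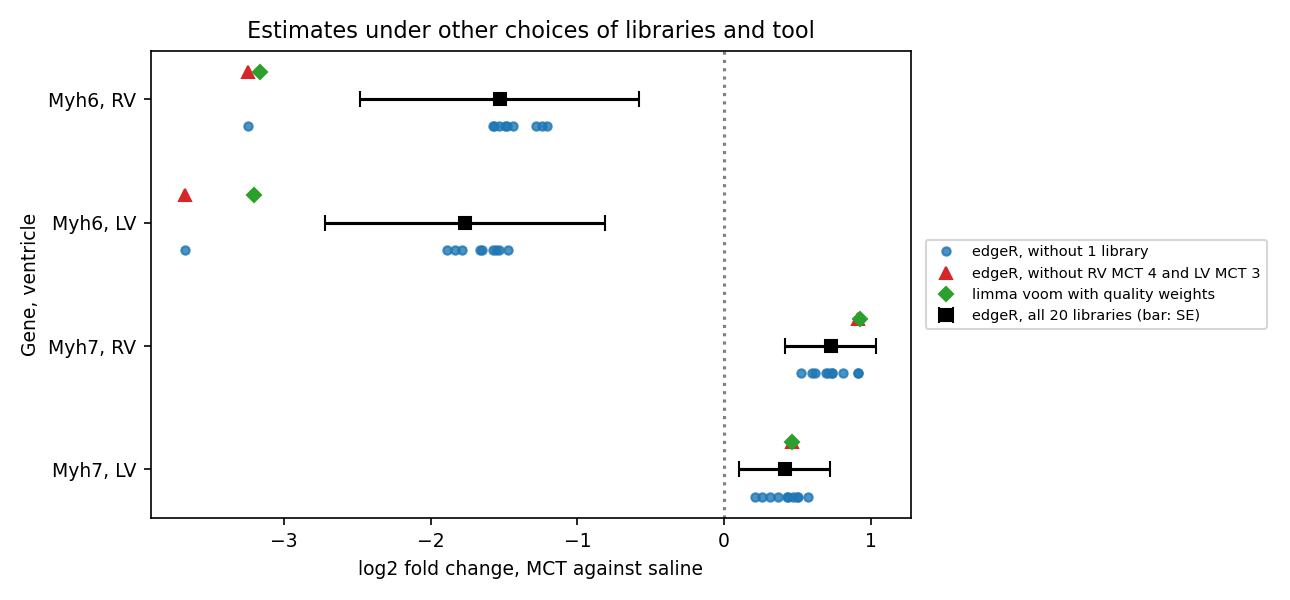
Log2 fold change of Myh6 and Myh7 for MCT against saline in each ventricle: black squares with SE bars are edgeR with all 20 libraries, blue points leave out 1 library each, red triangles leave out RV MCT replicate 4 and LV MCT replicate 3, and green diamonds are limma voom. For Myh6 in the RV the values run from -3.24 to -1.21 when 1 library is left out, while for Myh7 they run from 0.52 to 0.91.

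The ratio of both transcripts within a library does not depend on library size or on normalization. In RV saline libraries the Myh7/Myh6 ratio was 0.334, 0.501, 0.675, 0.375 and 0.364 in replicates 1 to 5, so Myh6 exceeded Myh7 in each. In RV MCT libraries it was 84.3, 15.0, 3.04, 0.256 and 11.9. Myh7 exceeded Myh6 in 4 of these 5, and RV MCT replicate 4 had the lowest ratio of all 20 libraries.

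In LV saline libraries the ratio was 0.359, 0.799, 1.44, 0.941 and 0.907, close to equal levels in replicates 2 to 5. In LV MCT libraries it was 62.1, 16.9, 0.814, 8.28 and 10.3. Of the 10 MCT libraries 8 had a ratio above all 10 saline libraries, and those were the 8 that stood above them on the first principal component.

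Stated as a share of both transcripts, Myh7 made up 30.5% ± 6.31 (SD, n = 5) in RV saline and 76.1% ± 32.4 in RV MCT libraries. The shares were 45.2% ± 11.9 in LV saline and 83.6% ± 21.9 in LV MCT. In single libraries the share ran from 20.4% (95% Wilson interval 19.8% to 21.0%), in RV MCT replicate 4, to 98.8% (98.6% to 99.0%), in RV MCT replicate 1. Intervals of the other libraries reached at most 0.797 percentage points to either side and cover counting error only.

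In the RV the mean log2 ratio was 2.704 ± 3.12 (SD, n = 5) after MCT and -1.20 ± 0.42 after saline. The difference was 3.91 (SE 1.41), a 15.0-fold higher ratio, seen in 4 of 5 MCT libraries (exact two-sided permutation test, p = 0.048). Over the 5 comparisons of the ratio the Benjamini-Hochberg value was 0.11, so the difference did not hold after correction. Without RV MCT replicate 4 the difference was 5.075 and all 4 MCT libraries lay above all saline libraries (exact permutation p = 0.0079). That library alone had kept the groups from separating, so its removal fixed this p in advance and adds no support. Without RV MCT replicate 1 or 2, or any single RV saline library, the difference was 2.98 to 4.07 and missed the threshold (exact permutation p from 0.056 to 0.063).

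In the LV the mean log2 ratio was 3.23 ± 2.27 (SD, n = 5) after MCT and -0.30 ± 0.73 after saline. The difference was 3.53 (SE 1.07), an 11.6-fold higher ratio, with 4 of 5 MCT libraries above all saline libraries (exact two-sided permutation test, p = 0.032, Benjamini-Hochberg value 0.11). Without LV MCT replicate 3 it was 4.41 (exact permutation p = 0.0079). Here too the library left out was the MCT library that overlapped the saline libraries, so this p was fixed in advance. With 5 libraries against 5, the smallest p this test can give is 0.0079.

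The description codes read as dates, of which 3 per group fall in May or June and 2 in November, so the ratio was also compared within these sets. In the RV the difference of log2 ratios was 5.02 among May and June libraries and 2.24 among November libraries, which hold RV MCT replicate 4. In the LV it was 3.67 among May and June libraries, which hold LV MCT replicate 3, and 3.32 among November libraries. The sign was thus the same in both sets and both ventricles. With 3 against 3 the smallest two-sided exact p is 0.10, and with 2 against 2 it is 0.33, so neither set can reach the threshold. For Myh6 the edgeR log2 fold changes in May and June and in November were -3.18 and -0.52 in the RV, and -1.46 and -3.02 in the LV. For Myh7 they were 0.59 and 0.997 in the RV, and 0.47 and 0.26 in the LV. None of these passed the threshold (edgeR adjusted p from 0.096 to 0.98).

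**Figure D3:**
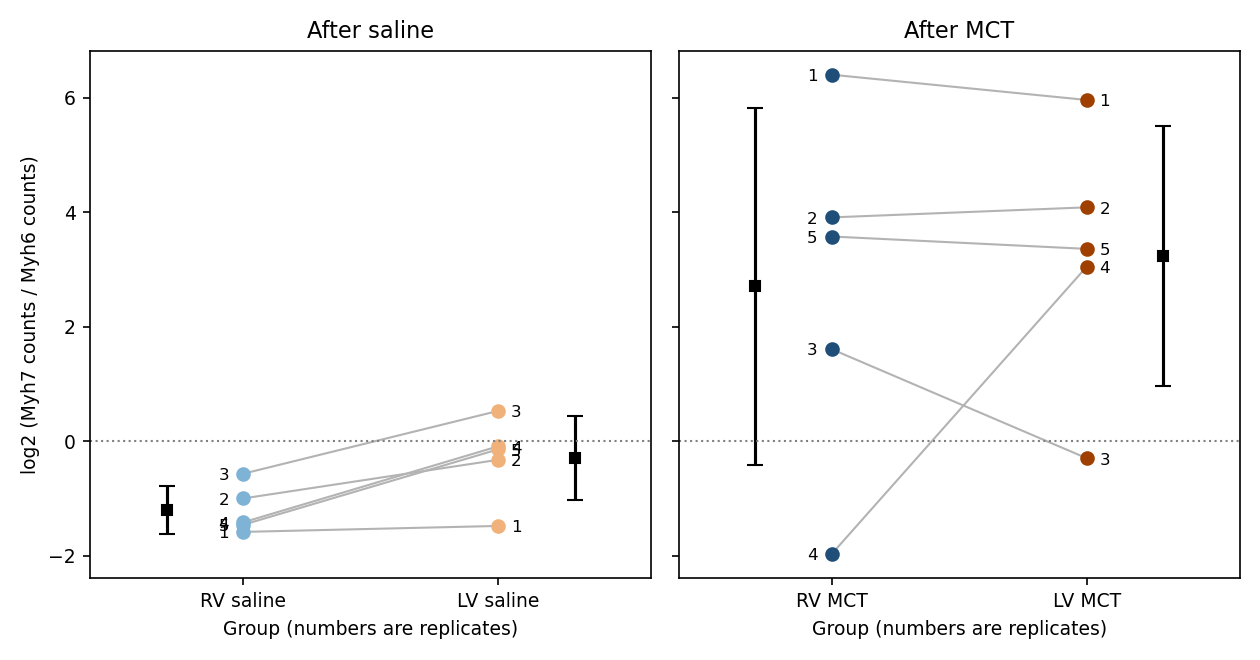
Log2 of the Myh7/Myh6 count ratio in each library after saline (left) and after MCT (right); lines join RV and LV libraries with the same replicate number, and black squares with bars are group means with 1 SD. After saline each line runs upward from RV to LV, and after MCT the line of replicate 4 runs from -1.97 to 3.05.

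The responses of the ventricles were compared directly. The response of the log2 ratio to MCT was larger in the RV by 0.38 (SE 1.77), which an exact permutation of treatment labels within each ventricle did not separate from 0 (two-sided p = 0.88). For Myh6 the difference of responses was 0.24 (SE 1.31, 95% interval -2.49 to 2.97) and for Myh7 0.31 (SE 0.44, 95% interval -0.59 to 1.22), with an edgeR adjusted p of 0.99988 for both. That comparison called 0% of genes with edgeR (305 at an unadjusted p under 0.05) and 1 gene each with DESeq2 and limma voom. With RV MCT replicate 4 and LV MCT replicate 3 left out, the difference of responses was 0.66 for the log2 ratio (exact permutation p = 0.81), 0.43 for Myh6 and 0.45 for Myh7 (edgeR adjusted p = 0.999 for both). The intervals are wide, so these data do not show that the ventricles responded alike.

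After saline the Myh7/Myh6 ratio of the LV was above all RV libraries in 4 of 5 LV libraries. The log2 ratio, RV minus LV, differed by -0.90 (SE 0.38), so that the ratio was 1.87-fold higher in the LV, and the difference did not pass the threshold (exact two-sided permutation test, p = 0.063, Benjamini-Hochberg value 0.11). In 5 of 5 same-numbered pairs the RV library had the lower ratio, with differences of -0.10, -0.67, -1.10, -1.33 and -1.32 in replicates 1 to 5. Within May and June libraries the difference was -0.63 and within November libraries -1.32. As a share of both transcripts, the difference for Myh7 was -14.7 percentage points (exact permutation p = 0.048). The log2 ratio passed without RV saline replicate 3 (-1.06, exact permutation p = 0.048) or LV saline replicate 1 (-1.20, exact permutation p = 0.016). It missed the threshold in 13 of 16 alternatives. These include the 5 same-numbered pairs, where no exact permutation p under 0.0625 is possible. They also include leaving out RV MCT replicate 4 and LV MCT replicate 3, which changes no saline library. With 1 library left out the exact permutation p reached 0.10, and limma over all genes gave an unadjusted p of 0.43 (limma adjusted p = 0.92). By gene, RV against LV gave a log2 value of 0.32 (SE 0.93, edgeR adjusted p = 0.98) for Myh6 and -0.56 (SE 0.31, edgeR adjusted p = 0.68) for Myh7, in a comparison that called 0.0732% of genes.

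After MCT the ratio spread widely in both ventricles. The log2 ratio differed by -0.53 between RV and LV (SE 1.73, exact two-sided permutation p = 0.75), and by 0.72 and -2.40 within May and June and within November libraries. The log2 fold change of Myh6 was 0.56 (SE 0.93) and that of Myh7 -0.24 (SE 0.31), with an edgeR adjusted p of 0.99996 for both, and 0% of genes were called (203 at an unadjusted p under 0.05, and 0 with DESeq2 or limma voom). With RV MCT replicate 4 and LV MCT replicate 3 left out, the log2 ratio differed by -0.24 (exact permutation p = 0.91), and the log2 fold changes were 0.75 for Myh6 and -0.11 for Myh7 (edgeR adjusted p = 0.9998 for both). Same-numbered libraries were compared as well. RV minus LV log2 ratios were 0.44, -0.18 and 0.22 in replicates 1, 2 and 5, against 1.90 in replicate 3 and -5.01 in replicate 4. Replicate 1 had the highest and replicate 2 the next highest ratio in both ventricles. Same-numbered RV and LV libraries share their description codes, but the labels do not say that they come from the same animal.

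The order of mean log2 CPM for Myh6 was RV saline, LV saline, RV MCT and LV MCT, at 11.82, 11.46, 8.61 and 8.39. For Myh7 it was LV MCT, RV MCT, LV saline and RV saline, at 11.61, 11.31, 11.16 and 10.62. Neighbours in each order had overlapping ranges. RV and LV of the same treatment were not separated by the edgeR test, and the step between LV saline and RV MCT crosses both ventricle and treatment and was not tested.

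**Figure D4:**
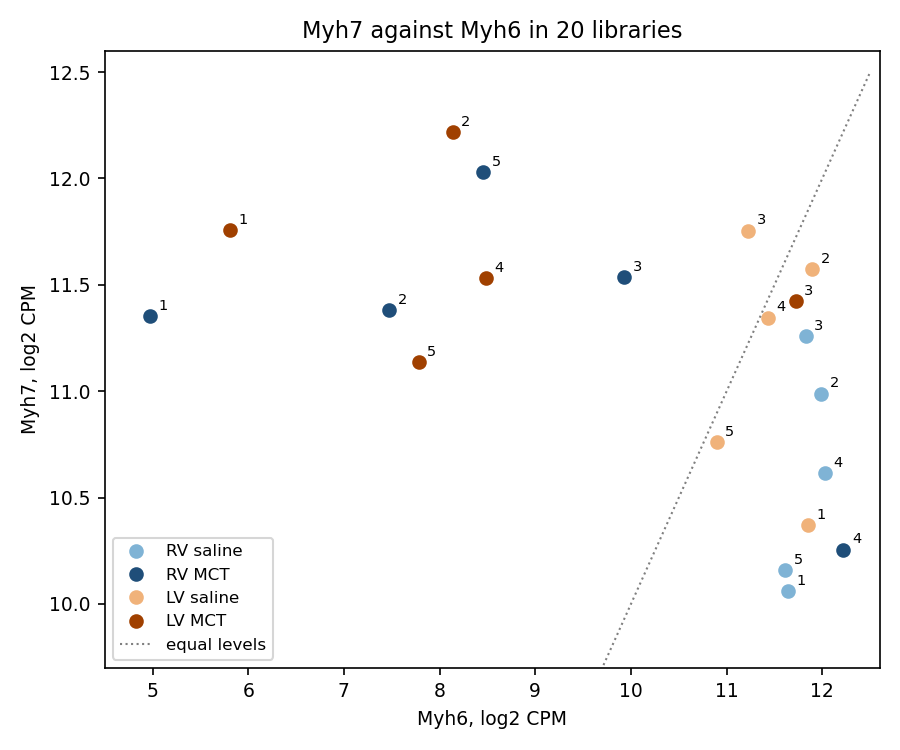
Myh7 against Myh6 in log2 CPM for each of the 20 libraries, coloured by group, with replicate numbers; the dotted line marks equal levels. Of the MCT libraries, 8 lie to the left with Myh6 at or below 9.93, while RV MCT replicate 4 and LV MCT replicate 3 lie with the saline libraries at 12.2 and 11.7.

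The summed level of both transcripts varied less than Myh6 over the 20 libraries, though not within RV saline. Myh6 plus Myh7 was at 5292 ± 943 CPM (SD, n = 5) in RV saline and 3994 ± 1363 CPM in RV MCT, and at 5344 ± 1176 CPM in LV saline and 4095 ± 1463 CPM in LV MCT. On the log2 scale the sum was lower after MCT by 0.45 (SE 0.25) in the RV and by 0.43 (SE 0.28) in the LV. Neither passed the threshold (exact two-sided permutation tests, p = 0.12 and p = 0.17, Benjamini-Hochberg value 0.42 for both over 5 comparisons). Without RV MCT replicate 4 the RV difference was -0.62 (exact permutation p = 0.048), and without LV MCT replicate 3 the LV difference was -0.59 (exact permutation p = 0.056). Of all counts, the sum took 0.514% ± 0.0568 in RV saline, 0.421% ± 0.106 in RV MCT, 0.459% ± 0.0821 in LV saline and 0.436% ± 0.102 in LV MCT. With this share in place of CPM after TMM, the log2 difference after MCT was -0.32 in the RV (exact permutation p = 0.16). In the LV it was only -0.093 (exact permutation p = 0.66), so the size of the LV difference depended on the scaling.

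Genes with the most similar pattern were sought among 6888 other genes with a mean log2 CPM of at least 3, by Pearson correlation of log2 CPM over the 20 libraries. The genes nearest to Myh6 were ENSRNOG00000030238 and ENSRNOG00000003984, each with r = 0.96, and r = 0.95 and 0.94 for deviations from the group means. ENSRNOG00000003984 fell in the LV, where its log2 fold change was -1.57 (SE 0.42, adjusted p = 0.025 in edgeR). In the RV it had -1.32 (SE 0.41, adjusted p = 0.11). ENSRNOG00000030238 was called in neither ventricle, with -0.77 in the RV and -1.21 in the LV (adjusted p = 0.49 and 0.15 in edgeR). The genes nearest to Myh7 were less close. ENSRNOG00000054548 had r = 0.84 (0.74 within groups) and ENSRNOG00000047867 had r = 0.77 (0.62 within groups). ENSRNOG00000047867 rose in the RV, where its log2 fold change was 1.24 (SE 0.25, adjusted p = 0.037 in edgeR). In the LV it had 0.67 (SE 0.25, adjusted p = 0.090). ENSRNOG00000054548 was called in neither ventricle, with 0.49 in the RV and 0.43 in the LV (adjusted p = 0.22 and 0.19 in edgeR). These genes were picked for following Myh6 or Myh7 over the same libraries, so their changes after MCT are no separate result. All libraries share the scaling by library size, and these correlations describe likeness over these libraries only.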

How the data were processed

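The 20 libraries were poly(A) 3′ end libraries (QuantSeq FWD, 150 bp read pairs) of RV or LV tissue, per the labels' protocols. The deposited values are raw read counts per Ensembl gene. STAR 2.7.10a, HTSeq 0.11.3 and the builds mRatBN7.2 and rn6 are named, without roles, per the submitters' processing notes. The strand setting is not given in the sources used here: RefSeq lists genes on the opposite strand over both members (LOC108352923 over Myh6, LOC120096985 and LOC120096984 over Myh7), and reads of these and of similar coding sequence could be shared.

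The files do not pair IDs with symbols and the reference table held no Ensembl IDs. The names Myh6 and Myh7 came with the choice of rows, and lists of other sarcomere genes, regulators and cell type markers were not tested. Members and lists were chosen with earlier results of these data known. Other genes are named only as the 2 most alike per member.

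The main test was that of edgeR 4.0.16 under R 4.3.3 (TMM, filterByExpr, robust quasi-likelihood fit of 4 group means over 20 libraries, Benjamini-Hochberg over 10929 genes, threshold 0.05). Both members passed the filter. SEs derive from the F statistic. Log2 CPM used a prior count of 2. Ratios were compared by exact permutation. The edgeR fit was tested on simulated data. Totals of 3272420 to 9227104 counts limit precision for weak genes, not for these. No 2 libraries of a group agreed within sampling noise (lowest chi-square per degree of freedom 4.87 over 40 pairs). Within a group each library has its own description code, but separate animals per library are not stated in the labels. The p-values therefore reflect the spread among libraries, which may be technical. The fits within months and the summed level were added after seeing the data. Alternatives included DESeq2 1.42.0 and limma 3.58.1.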

Additional observations from a re-analysis of the deposited data

How the results depend on the processing

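Myh6 in MCT against saline changed its call with the libraries kept and with the tool. Without RV MCT replicate 4 and LV MCT replicate 3 together, its RV log2 fold change was -3.24 and its LV one -3.67 (edgeR adjusted p = 0.0053 and 0.0012), in fits that called 1076 RV and 2016 LV genes against 30 and 1040 with all libraries. With limma voom it was -3.16 and -3.20, with 275 and 2911 genes called. Dropping libraries that looked unaffected favours such calls. Leaving out 1 library gave RV values of -3.24 to -1.21 and LV values of -3.67 to -1.47. RLE, total counts, scaling without both genes, other filters, the month term, the compared groups alone and DESeq2 left Myh6 uncalled with the same sign. Myh7 kept its sign and stayed uncalled in all alternatives of all 5 comparisons, with adjusted p down to 0.052. Its LV log2 fold change was 0.79 on total counts, against 0.41. The Myh6 difference of responses changed sign with 1 library left out (-1.48 to 2.14), and so did RV against LV after MCT (-1.16 to 2.46).

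The RV ratio difference of 3.91 lost its call when permuted within months (3.91, exact permutation p = 0.050), and in limma over all genes (3.91, limma adjusted p = 0.14). It ran from 2.98 to 5.075 with 1 library left out, where exact permutation p reached 0.063. The threshold was missed without RV MCT replicate 1 or 2 or any single RV saline library. The LV ratio difference of 3.53 kept an unadjusted exact permutation p under 0.05 with any 1 library left out (2.85 to 4.41). In limma it was 3.53 with an unadjusted p of 0.0051, and missed the threshold after adjustment over all genes (limma adjusted p = 0.060). RV against LV after saline passed as a share of both transcripts (-14.7 percentage points), and ran from -1.20 to -0.70 with 1 library left out, passing without RV saline replicate 3 or LV saline replicate 1. For the ratio, the difference of responses ran from -0.55 to 1.55 without single libraries and RV against LV after MCT from -1.45 to 0.64. For the summed level these were -0.19 to 0.14 and -0.19 to 0.13, and -0.13 to 0.094 after saline, where the share of all counts gave 0.18. For each of these changes, the cause was not tested.

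With the replicate block, the exact permutation test of 5 pairs cannot give a p under 0.0625. The ratio differences were 3.91 in the RV and 3.53 in the LV (exact permutation p = 0.125 for both), which says nothing about stability. With replicate number as a term over all groups, the log2 fold change of Myh6 was -2.68 in the RV and -2.95 in the LV (edgeR adjusted p = 0.18 and 0.084). The difference of responses of Myh6 was -0.33 under another block, which joined same-numbered RV and LV libraries of a treatment. Over all genes, MCT and saline libraries of one number did not deviate together, with r of -0.23 to 0.21 (RV) and -0.32 to 0.22 (LV). RV with LV gave r of -0.35 to 0.24 after MCT, where 1 of 5 correlated best with its own number, and of -0.18 to 0.59 after saline, where 3 of 5 did.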

Other observations

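Among the 74 genes with an average log2 CPM of at least 10, Myh6 had the lowest log2 fold change after MCT in both ventricles, and their median was -0.31 in the RV and -0.57 in the LV. Of all 10929 genes, 23 had a lower value than Myh6 in the RV and 18 in the LV. These are ranks of point estimates, and Myh6 was called in neither ventricle (edgeR adjusted p = 0.43 and 0.26). Ranked by p, it was only 3092nd in the RV and 3279th in the LV. Myh7 was exceeded by 5 of the 74 genes in the RV and by 4 in the LV. In RV MCT replicate 1, Myh6 ranked 3054th by counts, while Myh7 ranked 28th. The 10 genes with most counts took 48.6% of RV MCT replicate 4 and 50.2% of LV MCT replicate 3, against 25.7% to 42.2% in the other 8 MCT libraries and 34.6% to 50.2% in saline libraries. Their part in the myosin levels of these 2 libraries was not tested.

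On the log2 scale, in 16 sets of 5 values (both genes, their ratio and their sum in each group), the gap of an extreme library to its nearest neighbour never exceeded 0.71 of the range.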
